A study of Homo sapiens with 6 samples.

Results

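The subject is how RNA of 5 genes of the splicing machinery, PRPF8, SNRNP200, EFTUD2, SRRM2 and SRRM1, was recovered with SF3B4. The members are the peaks that overlap by 1 bp or more an hg19 interval given for each gene: chr2:96940074-96971307 for SNRNP200, chr17:1553923-1588176 for PRPF8, chr17:42927311-42976813 for EFTUD2, chr16:2802330-2821413 for SRRM2 and chr1:24969594-24999772 for SRRM1. The rule found 8 peaks among the 181131 of the 4 deposited lists. SF3B4 is a protein of the U2 small nuclear ribonucleoprotein (snRNP), which recognises the branch site of introns. The study, whose title pairs SF3B4 with the RNA methyltransferase METTL16, used RNA immunoprecipitation and sequencing (RIP-seq), in which an antibody pulls down a protein with its RNA. All 6 libraries came from wild-type HEK293T, an established human embryonic kidney line, with no other treatment in the labels: anti-SF3B4, IgG and input, each from the experiments RIP-1 and RIP-2. The labels do not say whether the 2 experiments used separate cultures.

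During splicing the U5 snRNP joins U4 and U6 in the tri-snRNP and holds the exons at the catalytic centre. PRPF8 is the large scaffold protein of that centre, SNRNP200 (Brr2) is the helicase that unwinds the U4/U6 duplex, and EFTUD2 (Snu114) is a GTPase that sits beside both. SRRM1 and SRRM2 are large proteins rich in serine and arginine that act in splicing, and SRRM2 is a main scaffold of nuclear speckles. The measurements concern RNA copied from these genes and not the proteins or the U5 RNA.

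All 8 peaks came from RIP-1, and no peak of RIP-2 touched any of the 5 genes. For each experiment the authors deposited an mRNA list, with a strand for each peak, and a list named NotExon (non-exon below), without one, and left both names undefined in the labels. In the RIP-1 mRNA list, SNRNP200 had 3 peaks, PRPF8, SRRM2 and SRRM1 had 1 each, and EFTUD2 had 0. In the RIP-1 non-exon list, EFTUD2 and SRRM1 had 1 peak each, and the other genes had 0. In RIP-2 each of the 5 genes had 0 peaks of either kind. Each list is the call of 1 experiment, so a difference between the experiments has no replicate check and was not tested. Over the genome there were 10960 peaks in the mRNA list of RIP-1 and 25797 in its non-exon list, against 10280 and 134094 for RIP-2. Library depth is unknown, as is the control used for each call.

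Of the 6 mRNA-list peaks, 0 overlapped a RIP-2 mRNA-list peak, against 6.41% over the whole RIP-1 mRNA list. Neither of the 2 non-exon peaks had a RIP-2 partner of its kind, against a partner for 18.1% of that whole list. With only 6 and 2 peaks, 3 of the 6 in SNRNP200, neither background share could be told from the members' 0. The nearest RIP-2 peak of either list lay between 13.9 kb and 97.4 kb from each of the 8 peaks.

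**Figure D1:**
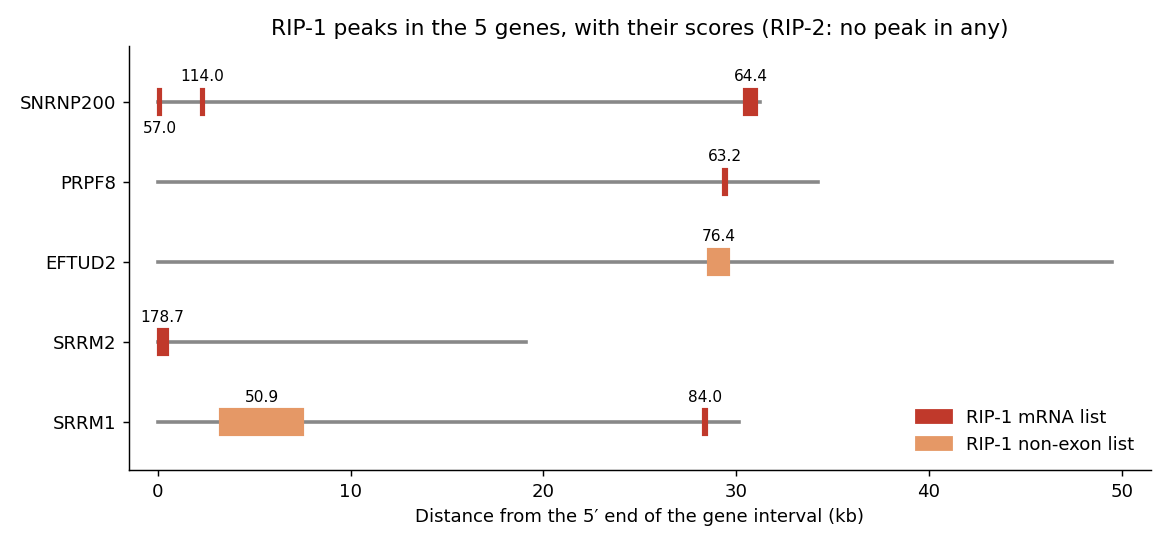
Each grey line is 1 gene interval drawn from its 5′ end, in kb, and each box is a RIP-1 peak of the mRNA list (red) or the non-exon list (orange) with its deposited score. SNRNP200 has peaks at both ends, SRRM2 at its 5′ end, and PRPF8 and SRRM1 have their mRNA-list peaks in the last part of the gene.

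SNRNP200 carried the most peaks. Its interval, on the minus strand of chromosome 2, is 31.2 kb long. The peak at chr2:96971130-96971298 began 9 bp from the 5′ end of the interval, was 168 bp wide and scored 56.98. The second, at chr2:96968896-96969068, began 2239 bp from the 5′ end, was 172 bp wide and scored 114.0. The third, at chr2:96940225-96940893, ended 151 bp before the 3′ end, was 668 bp wide and scored 64.44. The first 2 were thus close together at the start of the gene, 2.06 kb apart, and 28.0 kb without a RIP-1 peak separated them from the third. Together they covered 1008 bp, or 3.23% of the gene. Among windows of the same length, tiled without overlap from the first to the last peak of each chromosome and so including stretches without genes, 8.22% held a RIP-1 mRNA-list peak and 0.712% held 3 or more. A RIP-2 peak of either list was found in 67.5% of all such windows and in 71.2% of those with a RIP-1 mRNA-list peak, while SNRNP200 held none. The closest RIP-2 mRNA-list peak lay 13.7 kb beyond its 3′ end.

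PRPF8, the scaffold of the catalytic centre, had a single RIP-1 peak and none in RIP-2. The mRNA-list peak at chr17:1558643-1558837 was 194 bp wide and scored 63.21. It lay on the minus strand, as the gene does, 4720 bp before the 3′ end of an interval of 34.3 kb. It covered 0.566% of the gene, the smallest coverage among the 4 genes with an mRNA-list peak. Of windows of this length, 8.81% held a RIP-1 mRNA-list peak and 70.0% a RIP-2 peak of either list. That share was 74.6% in the windows with a RIP-1 mRNA-list peak. Within 500 kb on either side there were 17 RIP-1 mRNA-list peaks including this one, and 0 of the RIP-2 mRNA list. The RIP-2 non-exon list had 46 peaks there. A RIP-2 non-exon peak came as near as 9.79 kb to the 5′ end of the gene.

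EFTUD2, the GTPase and the longest of the genes at 49.5 kb, had no mRNA-list peak in either experiment. Its only peak was in the RIP-1 non-exon list at chr17:42947154-42948281, inside the gene at 58.8% of its length from the 5′ end. The peak was 1128 bp wide, with a score of 76.43, a fold enrichment of 5.09 over the control and a false discovery rate (FDR) of 100%. Such an FDR was the rule in this list, where 94.1% of the peaks had it, but not in the RIP-2 non-exon list, where 41.6% did. Of windows of this length, 11.7% held a RIP-1 mRNA-list peak, 30.2% a RIP-1 non-exon peak and 79.1% a RIP-2 peak of either list. The RefSeq gene table (GRCh38.p14) names HIGD1B and the 7SL pseudogene RN7SL405P as overlapping EFTUD2. Non-exon peaks carry no strand, and whether this peak lies over either of them was not analysed here.

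SRRM2, the speckle scaffold, had the strongest of the 8 peaks by score. The mRNA-list peak at chr16:2802329-2802847 on the plus strand scored 178.71 and was 518 bp wide. It started at the edge of the interval, 1 bp before it as deposited, and covered the first 2.71% of a gene of 19.1 kb. Nothing was listed in the remaining 18566 bp, in either experiment. Of windows of this length, 5.53% held a RIP-1 mRNA-list peak and 53.4% a RIP-2 peak of either list, and of those with a RIP-1 mRNA-list peak 53.5% also held a RIP-2 peak. In the RefSeq table SRRM2-AS1, an antisense noncoding gene transcribed from the other strand, is the next gene on this side and does not overlap SRRM2. The hg19 interval is 309 bp longer than the RefSeq gene, and whether the peak lies over SRRM2-AS1 was not analysed here. The library kit is not stated to keep the strand.

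SRRM1 was the only gene with a peak in both kinds of RIP-1 list. The mRNA-list peak at chr1:24997876-24998086 was 210 bp wide, on the plus strand like the gene, and scored 83.97. It ended 1686 bp before the 3′ end of an interval of 30.2 kb. The non-exon peak at chr1:24972834-24977129 began 3240 bp from the 5′ end and was 4296 bp wide, wider than 99.1% of its list, and covered 14.2% of the gene. It was also the weakest of the 8, with a score of 50.93 close to the floor of 50, a fold enrichment of 4.48 and an FDR of 100%. The RefSeq table names LOC124904829 as overlapping SRRM1, and whether this strandless peak lies over it was not analysed here. The 2 peaks were 20.7 kb apart and followed each other in the numbering of the call. Of windows of this length, 8.03% held a RIP-1 mRNA-list peak, 20.9% a RIP-1 non-exon peak and 66.5% a RIP-2 peak of either list. In windows with a RIP-1 mRNA-list peak the last share was 70.1%.

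The starts of SNRNP200 and SRRM2 are shown because these are the genes with a peak at the 5′ end. The sequences are from RefSeq (GRCh38.p14), not from hg19, and were matched by symbol, as were those of all 5 genes. Each runs from 250 bases before the annotated start, in lower case, through the first 30 transcribed bases, in capitals. The first is chr2:96305517-96305796 on the minus strand and the second chr16:2752388-2752667 on the plus strand.
SNRNP200: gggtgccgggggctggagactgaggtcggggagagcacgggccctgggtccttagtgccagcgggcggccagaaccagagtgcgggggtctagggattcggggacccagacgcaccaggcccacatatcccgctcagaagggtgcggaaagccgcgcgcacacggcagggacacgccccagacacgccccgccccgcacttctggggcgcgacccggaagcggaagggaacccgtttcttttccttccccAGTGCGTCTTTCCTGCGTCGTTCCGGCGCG
SRRM2: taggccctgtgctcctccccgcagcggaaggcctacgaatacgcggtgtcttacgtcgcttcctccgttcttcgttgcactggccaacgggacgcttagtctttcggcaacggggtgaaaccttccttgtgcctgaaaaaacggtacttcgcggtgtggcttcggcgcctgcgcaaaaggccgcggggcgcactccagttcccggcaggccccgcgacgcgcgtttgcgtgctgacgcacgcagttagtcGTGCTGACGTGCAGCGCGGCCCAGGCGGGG
Since the hg19 intervals are longer than the RefSeq genes, by 25 bp for SNRNP200 and 309 bp for SRRM2, the starts need not coincide and these bases were not placed on the peaks. The 250 upstream bases were 70.0% G or C in SNRNP200 and 63.2% in SRRM2, against a median of 58.0% over 35116 RefSeq start windows. They held 23 and 31 CpG dinucleotides, against a median of 11. The genes with no peak at the start were not lower as a group: PRPF8 had 61.2% and 19, EFTUD2 66.0% and 20 or 68.0% and 24 by its 2 annotated starts, and SRRM1 from 68.0% to 74.4% and from 24 to 38 by its 3. The letters TACAGAGAA, the motif known for METTL16, occurred on neither strand in the 8 start windows of the 5 genes (300 bases each), and in 0.316% of all such windows. At so low a share, 8 windows are too few for their 0 to mean anything. Most of each window also lies before the annotated start, so the count does not bear on the RNA recovered.

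By score the mRNA-list peaks of these genes were spread over the RIP-1 list, and only that of SRRM2 lay above its upper quartile. The score is the value the authors deposited. It was read as 10 times the negative log10 of a p-value, which no header states and which was not checked. The share of the list with a lower score was 86.3% for the SRRM2 peak, 71.8% for the second SNRNP200 peak and 53.8% for the SRRM1 peak. It was 30.4% and 16.3% for the other SNRNP200 peaks and 28.2% for PRPF8. The median of the 6 was 74.2, against 79.9 over the list (interquartile range 61.3 to 122), so 3 lay below the list's median. In the list 1498 peaks scored higher than that of SRRM2. The non-exon peaks ranked above 64.7% of their list for EFTUD2 and above 3.49% for SRRM1. By fold enrichment both were low, above 19.3% and 8.92% of the list, whose median was 6.55.

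**Figure D2:**
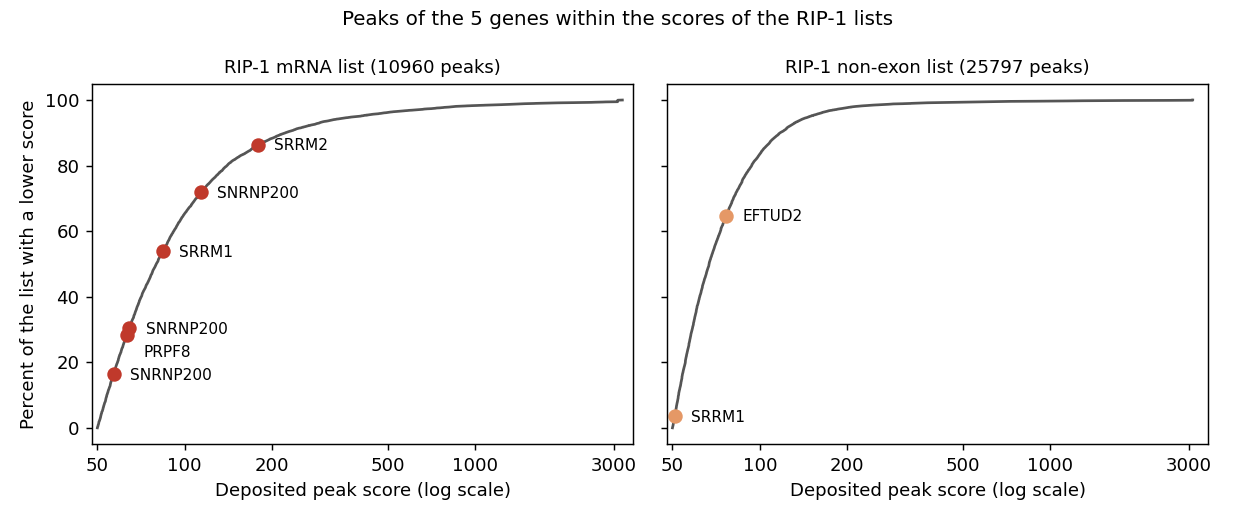
Curves give the percent of the RIP-1 mRNA list (left) and RIP-1 non-exon list (right) at or below each deposited score, on a log axis. Points mark the peaks of the 5 genes at the percent of their list with a lower score. The highest point, SRRM2 at 178.71, stands above 86.3% of its list.

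Over their combined 164 kb the genes held 36.5 RIP-1 mRNA-list peaks per Mb, against 3.64 over the genome. The genome mean includes stretches without genes, and at the density measured within 500 kb around each gene, the gene left out, 1.91 peaks would be held where 6 were listed. That density too is taken over all bases, in genes or between them, and 3 of the 6 peaks were in SNRNP200. The same was not counted over other genes, so whether the excess is particular to these 5 was not tested. The RIP-1 non-exon density was 12.2 per Mb against 8.57 over the genome, but by the density around the genes 2.36 peaks would be held and 2 were listed. RIP-2 had 0 in both lists against 3.42 and 44.6 per Mb. At the mean density of the RIP-2 non-exon list a stretch of this total length would hold 7.32 peaks, and at the density around the genes 6.78. For the RIP-2 mRNA list these numbers are 0.561 and 0.819, so its 0 is a small difference. The RIP-2 densities too are taken over all bases, in genes or between them. RIP-2 peaks were not counted over other genes, so whether either 0 is particular to these 5 was not tested. Bases covered in RIP-1 were 1.18% of the 5 genes by mRNA-list peaks and 3.30% by non-exon peaks, against 0.176% and 0.803% of the genome. Of the 5424 bases under non-exon peaks, 4296 lay under the single SRRM1 peak, which scored 50.93, close to the floor of 50. The non-exon share thus rested mostly on that peak, which was wider than 99.1% of its list. The EFTUD2 peak covered 1128 bases.

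The surroundings differed between genes. Within 500 kb on either side, with the gene itself left out, RIP-1 mRNA-list peaks were 4.39 times the mean density of their list at PRPF8 and at EFTUD2, 3.29 times at SRRM2, 2.47 times at SNRNP200 and 0.549 times at SRRM1, where 2 peaks were listed. RIP-2 non-exon peaks there were near their mean at EFTUD2 (1.14 times), PRPF8 (1.03) and SNRNP200 (1.01), and below it at SRRM2 (0.651) and SRRM1 (0.539). RIP-2 mRNA-list peaks were 3.22 times their mean around SNRNP200, with 11 peaks, none inside the gene. The stretch without any RIP-2 peak that contains the gene measured 207 kb at SRRM1, 129 kb at EFTUD2, 122 kb at SNRNP200, 119 kb at SRRM2 and 75.3 kb at PRPF8. The median gap between RIP-2 peaks was 9.75 kb, but long gaps hold many bases: gaps at least as long as that of PRPF8 made up 28.9% of all bases between RIP-2 peaks, and for SRRM1 7.68%.

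**Figure D3:**
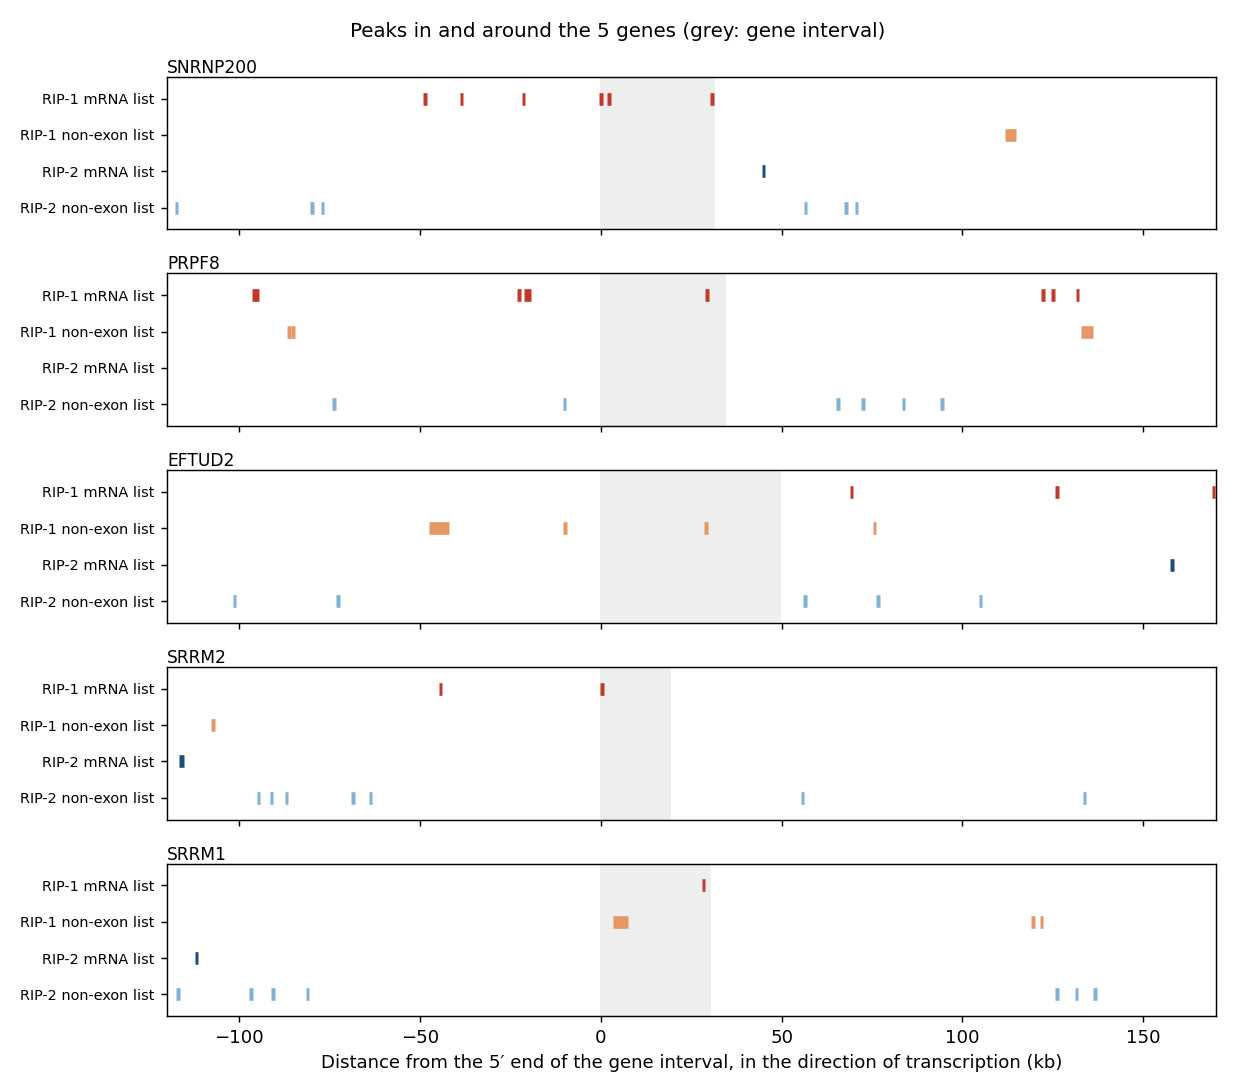
Peaks of the 4 lists from 120 kb before the 5′ end (distance in kb along the direction of transcription), 1 panel per gene with the gene interval in grey. Peaks under 1 kb are drawn at that width so that they can be seen. RIP-1 peaks lie inside every grey interval and RIP-2 peaks only outside.

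The peaks shared no single place in the genes. All 6 mRNA-list peaks stood on the strand of their gene, though the sources used here do not say how a peak was given its strand. Of these 6, 3 began within the first 2239 bp of their gene (the first 2 of SNRNP200 and that of SRRM2), and the other 3 lay within the last 4914 bp (SNRNP200, PRPF8 and SRRM1). No mRNA-list peak fell between, while the non-exon peaks, which carry no strand, were centred at 58.8% of EFTUD2 and 17.9% of SRRM1. The same was not counted over other genes, so nothing here is shown to be particular to these 5. Whether these segments are first or last exons, coding or untranslated was not analysed here, since it needs an hg19 annotation.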

How the data were processed

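Reads were paired and 150 bp long, per the labels' protocols, and cutadapt 1.9.3, HISAT2 2.0.4 and hg19 are named in the submitters' processing notes. The authors deposited peak lists, 1 call per experiment, split into lists named mRNA and NotExon (here non-exon). MACS, its version not given, appears only in the peak names. The deposited score has a floor of 50. For non-exon peaks the authors also deposited the length, a fold enrichment (a ratio over the control) and an FDR in percent; the columns have no header and were read from values and order. Intervals were compared in Python 3.11.15 with pandas 2.3.3, with the overlap code tested on simulated data. mRNA-list widths are end minus start, and their counting base is unknown by 1 bp. Each list is 1 sample, so no test between experiments was made. Named were the 5 genes and all their peaks. Members, gene intervals and settings were chosen with earlier results of these data known. The source of the intervals is not given. Genes alike in pattern and other U5 and tri-snRNP genes need hg19 gene positions and were not analysed here.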

Additional observations from a re-analysis of the deposited data

How the results depend on the processing

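Of 48 alternative values, 6 moved by more than 1.5 times and 2, a median score and a median fold enrichment without a replicate spread to hold them to, by less. The other 40 were the same or, for counts, within 1.5 times. The 0 RIP-2 peaks and the 0 shared peaks stayed 0 under every alternative run, but none of these could have moved them. Midpoint or whole peak inside, gene strand only, lists of equal length and the upper part of the lists only remove peaks. Intervals widened by 1 kb cannot reach a RIP-2 peak, since the nearest lay 6.72 kb from any of the genes. Other overlaps cannot either, with 13.9 kb or more between each member peak and RIP-2. The 40 include these 0 values, which are thus no check of the difference between experiments. With scores at or above the list median, the RIP-1 mRNA list kept 3 peaks and 900 covered bases (6 and 1930 before) and the RIP-1 non-exon list 1 peak and 1128 bases (2 and 5424 before), since weak peaks leave by construction. Both kinds of RIP-1 list together covered 7354 bases. The highest peak in place of the median gave scores of 178.71 and 76.43 (medians 74.2 and 63.68) and a fold enrichment of 5.09 (median 4.785). No paired analysis was possible because the lists give no value for any single library. For the same reason no experiment could be left out of a comparison. Unknown depth limits every comparison of RIP-1 with RIP-2.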
